A study of Homo sapiens with 6 samples.

Results

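The genes described here are those of the unfolded protein response of the endoplasmic reticulum (ER) and of ER quality control: the IRE1 and ATF6 sensor branches, lumenal chaperones, disulfide enzymes, ER-associated degradation (ERAD) and the translocon. They were chosen by name, as 37 of the 35430 genes in the deposited count table, and all 37 were found and passed the filter on low counts that left 21218 genes for the test. The RNA came from LNCaP, an androgen-sensitive line of human prostate cancer cells. There were 3 libraries of cells kept for 1 week in 0.5 µM palbociclib, an inhibitor of the cell cycle kinases CDK4 and CDK6 (dose and time from the series' design text), and 3 of control cells, for which no vehicle or culture time is recorded here. Time in culture and the drug therefore cannot be told apart, and nothing says that the libraries of a group came from separate cultures, so p-values measure only the spread between these libraries.

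Most proteins that a cell secretes or places in its membranes enter the ER through the translocon and fold there with the help of chaperones. When unfolded proteins build up, 3 sensors in the ER membrane respond. IRE1, the product of ERN1, splices the XBP1 transcript so that it encodes an active transcription factor, ATF6 travels to the Golgi and is cut into an active factor by the proteases of MBTPS1 and MBTPS2, and PERK slows translation and favours translation of ATF4. XBP1 and ATF6 then raise transcription of the folding and disposal machinery. The prostate luminal cell is a secretory cell, and the IRE1 and XBP1 branch has been described as responsive to androgen in prostate cancer cells. The gene-level counts used here do not separate spliced from unspliced XBP1 and do not report on the cutting of ATF6.

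The libraries held 59183323 to 76211410 estimated counts with palbociclib and 57082715 to 78117945 in controls. About 4 counts were taken to stand for a sequenced fragment. Palbociclib and control libraries parted on principal component 1 (47.8% of variance). On the next (16.8%), control library 3 lay at 65.2 against -45.9 and -9.26 for the other controls. Of 10 prostate luminal markers all were tested, with a summed level of 9343 to 9534 CPM (counts relative to the library's total) with palbociclib and 6113 to 6188 CPM in controls. Among them 8 rose, 1 fell and 1 did not pass (80% and 10%, beside 20.1% and 18.5% of all genes tested). Their log2 fold changes ran from -0.29 to 1.47 with a median of 0.42. Of 15 markers of other cell types 12 were in the table and 10 were tested, with a summed level of 42.6 to 49.2 CPM with palbociclib and 43.7 to 49.2 CPM in controls, and DCN and KRT5 were under the filter. Most of that sum was COL1A1, at 29.2 CPM with palbociclib and 26 CPM in controls. Of the 10 markers, KRT14 (1.18) and CD68 (1.35) rose, PTPRC (-1.33) and VWF (-0.99) fell and 6 did not pass, with a median log2 fold change of -0.66; these genes were named after their values were seen, and their part in the results was not tested. Mitochondrial genes held 7.05% to 7.43% of counts with palbociclib and 5.67% to 6.15% in controls. In bulk RNA, fewer cells of a type and less RNA per cell cannot be told apart. Levels are CPM scaled by TMM, edgeR's normalization for library composition, unless they are called FPKM, which is per length of exon and per library, and changes are log2 fold changes of palbociclib over control from edgeR's quasi-likelihood test, called at an adjusted p under 0.05.

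Several abundant folding genes rose while 3 regulators of the response fell, and most of the 37 genes did not pass the test. CALR, PDIA4, HSPA5, HSP90B1 and PDIA3, which encode chaperones and disulfide isomerases, were 1.27 to 1.48 times as high with palbociclib as in controls. Other abundant genes of these classes stood closer to 1, from 1.23 for PDIA6 and 1.11 for P4HB, which rose, to 1.04 for CANX and 0.95 for HYOU1 and TXNDC5, which did not pass. The mRNAs of the regulators XBP1, ERN1 and ATF6 were at 0.41, 0.44 and 0.62 of the control level, and those of the ERAD genes HERPUD1 and SEL1L at 0.66 and 0.79. In all, 9 of the 37 genes rose and 8 fell (24.3% and 21.6%), beside 20.1% higher and 18.5% lower among all genes tested, and 20 did not pass. The share called was 45.9% against 38.6% of all genes tested. The groups did not overlap for 26 of the 37 genes (70.3%), beside 51.1% of all genes tested. With library size alone in place of TMM, 6 rose and 13 fell, and among all genes the share of calls that were higher moved to 36.1%, against 52.1% with TMM.

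The median absolute log2 fold change was 0.15 over the 37 genes and 0.35 over all genes tested. Genes of like level were not compared. This gap, and those in the shares called and without overlap, therefore cannot be called particular to the 37 genes. XBP1, ERN1 and SDF2L1 fell by more than 2-fold, 8.11% of the 37 genes beside 5.27% of all genes tested, and the largest rise among the 37 was the 0.56 of CALR, where 3% of all genes tested rose by more than 2-fold. The 37 genes together held 11880, 11870 and 11820 CPM with palbociclib and 10700, 10510 and 10480 CPM in controls. As a share of all counts, with no TMM scaling, they held 1.136% to 1.143% with palbociclib and 1.085% to 1.112% in controls.

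**Figure D1:**
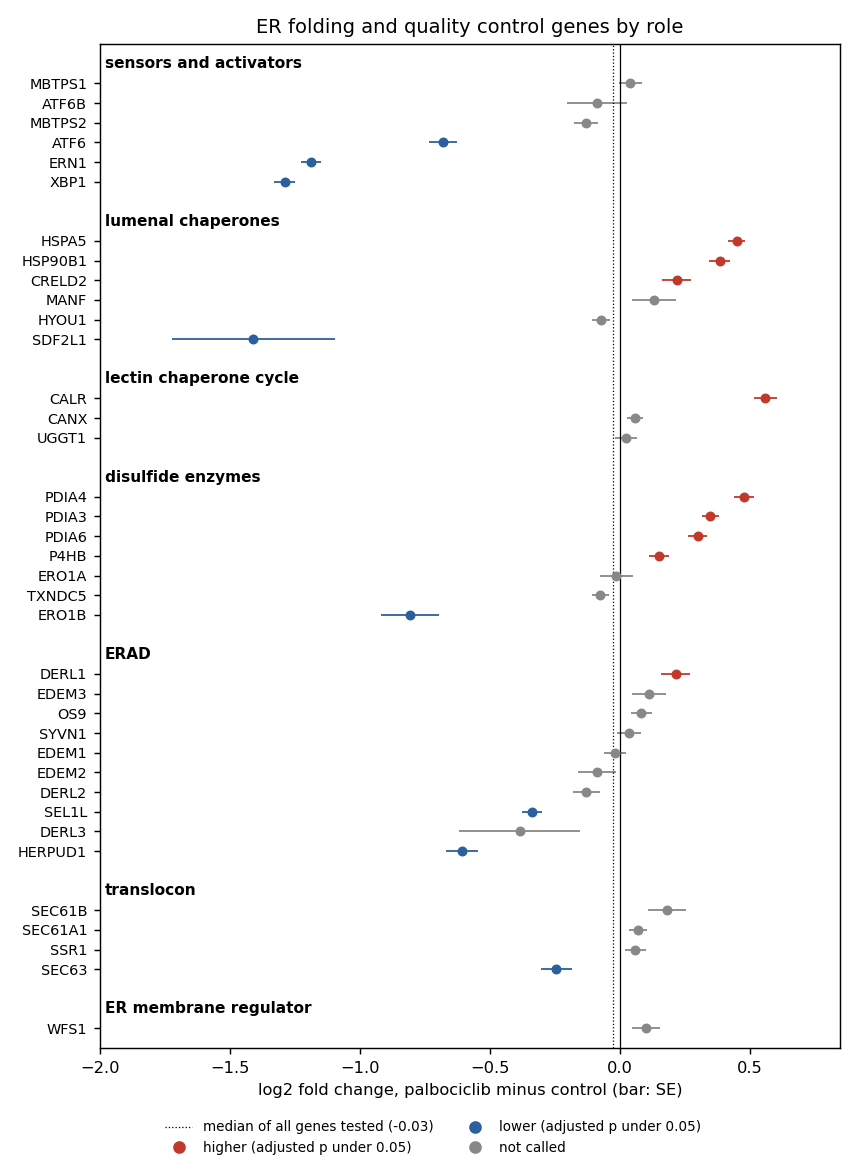
Log2 fold change of palbociclib over control for each of the 37 genes, grouped by role, with points coloured by call and bars of 1 SE on either side (3 libraries a group). HSPA5, CALR and PDIA4 stand at 0.45, 0.56 and 0.48, and XBP1, ERN1 and SDF2L1 lie left of -1; the dotted line is the median of all genes tested, -0.03.

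ATF6 and XBP1 bind the ER stress response element (ERSE) in promoters of chaperone genes, where the factor NF-Y holds the CCAAT part. The promoter windows of the 37 genes were therefore searched on both strands for its letters, CCAAT and CCACG with 9 bases of any kind between them, and for those of the related ERSE-II, ATTGG and CCACG with 1 base between them. Windows ran from 250 bases before to 50 bases after each RefSeq start on GRCh38.p14, and 34 of the 37 genes were matched, all but PDIA3, DERL1 and DERL3. ERSE was in a window of 8 of the 34 genes (23.5%), beside 25 of all 27305 genes with a window (0.0916%), and ERSE-II in 3 of the 34 (8.82%), beside 19 of all (0.0696%). Chaperone genes of this kind served to define the elements, so that their presence here is a description. The matches are shown because genes that rose and genes that fell carry the same element. Each is on the gene's own strand from 5′ to 3′ with 5 bases on either side, and capitals mark the fixed letters of the element, which read CGTGG before ATTGG or CCAAT where it lies on the other strand. Genes with ERSE were as follows.
HSPA5, chr9:125241386-125241414, minus strand: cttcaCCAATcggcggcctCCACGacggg
HSP90B1, chr12:103930211-103930239, plus strand: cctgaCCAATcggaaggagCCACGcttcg
HSP90B1, chr12:103930316-103930344, plus strand: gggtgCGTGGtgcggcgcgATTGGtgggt
CALR, chr19:12938379-12938407, plus strand: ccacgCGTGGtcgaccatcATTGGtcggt
PDIA6, chr2:10812848-10812876, minus strand: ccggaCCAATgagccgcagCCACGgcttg
CRELD2, chr22:49918549-49918577, plus strand: cctctCGTGGcgaactcggATTGGgccat
CANX, chr5:179698773-179698801, plus strand: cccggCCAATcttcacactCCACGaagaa
XBP1, chr22:28800598-28800626, minus strand: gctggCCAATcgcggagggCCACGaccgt
ERO1B, chr1:236282178-236282206, minus strand: gcccgCGTGGtcccgcctcATTGGccgcc
Genes with ERSE-II were as follows.
HYOU1, chr11:119057375-119057395, minus strand: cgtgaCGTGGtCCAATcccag
HYOU1, chr11:119057269-119057289, minus strand: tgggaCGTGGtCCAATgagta
SDF2L1, chr22:21642109-21642129, plus strand: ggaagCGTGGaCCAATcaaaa
HERPUD1, chr16:56932020-56932040, plus strand: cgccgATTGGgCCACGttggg

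Of the 8 genes with ERSE, HSPA5, HSP90B1, CALR, PDIA6 and CRELD2 rose, XBP1 and ERO1B fell and CANX did not pass. Their median log2 fold change was 0.26. Among the 34 matched genes, 7 rose, 8 fell and 19 did not pass, and among all genes tested 20.1% rose and 18.5% fell. A link between the element and the changes was not tested. Of the 3 with ERSE-II, SDF2L1 and HERPUD1 fell and HYOU1 did not pass. The 17 other genes with ERSE in a window included 9 that were tested, of which 2 rose, 2 fell and 5 did not pass, with a median of -0.03. For ERSE-II there were 16 other genes with 12 tested, of which 2 rose, 0 fell and 10 did not pass, with a median of 0.03. The shorter letters CCACG, which both elements contain, were in a window of 24 of the 34 genes (70.6%) and of 42.1% of all genes with a window.

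Among the 6 sensors and activators, 3 fell (50%, beside 18.5% of all genes tested) and 3 did not pass. The summed level was 417 ± 7.38 CPM with palbociclib and 716 ± 11.2 CPM in controls (SD, n = 3 each). XBP1 (ENSG00000100219, chromosome 22, 28794555 to 28800597 on hg38, as are all gene positions), the transcription factor of the IRE1 branch, had 118.6, 120 and 127.3 CPM in the palbociclib libraries and 304.7, 296.2 and 293.2 CPM in the controls. The groups were far apart and tight within themselves, and XBP1 fell by 1.29 ± 0.0409 on the log2 scale (SE; edgeR adjusted p = 1.65e-07). ERN1 (ENSG00000178607, chromosome 17, 64039080 to 64130819), which encodes the sensor and RNase IRE1, had 55.1, 55.7 and 53.6 CPM with palbociclib and 124.3, 127.1 and 122.9 CPM in controls. It fell by 1.19 ± 0.0394 (edgeR adjusted p = 2e-07). The mRNA for the enzyme of the branch and its substrate transcript were thus both lower in every palbociclib library than in any control. ATF6 (ENSG00000118217, chromosome 1, 161766298 to 161975373), the sensor of the second branch, had 79, 83.1 and 83 CPM with palbociclib and 136.3, 121.4 and 134.9 CPM in controls, a fall of 0.68 ± 0.0532 (edgeR adjusted p = 1.97e-05).

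ATF6B, MBTPS1 and MBTPS2 did not pass the test. ATF6B, a paralog of ATF6, was at 23.2 ± 3.06 CPM with palbociclib and 24.7 ± 2.76 CPM in controls (log2 fold change -0.09 ± 0.115, edgeR adjusted p = 0.597). MBTPS1 and MBTPS2, the site-1 and site-2 proteases that free ATF6 from the membrane, gave 0.04 ± 0.0440 (adjusted p = 0.506) and -0.13 ± 0.0450 (adjusted p = 0.051) in edgeR. MBTPS2 had 49.7, 52.1 and 50.8 CPM with palbociclib and 54.1, 56.6 and 56.1 CPM in controls, without overlap between the groups. MBTPS2 was called lower with library size alone (adjusted p = 0.00289), with counts divided by 4 (adjusted p = 0.0294) and by both limma fits (adjusted p = 0.0113 and 0.0101), over a range of 0.00289 to 0.175 among alternatives. It shares 1093 of its 8945 exon bases with YY2, a gene on the same strand inside it.

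The 6 lumenal chaperones and their partners gave 3 rises and 1 fall (50% and 16.7%, beside 20.1% and 18.5% of all genes tested). Their summed level was 3733 ± 34.1 CPM with palbociclib and 3011 ± 53.4 CPM in controls. HSPA5 (ENSG00000044574, chromosome 9, 125234853 to 125241382), which encodes BiP, the ER HSP70 that also holds the sensors inactive, had 1569, 1590 and 1582 CPM with palbociclib and 1188, 1145 and 1135 CPM in controls. The palbociclib libraries all lay above the controls, and HSPA5 rose by 0.45 ± 0.0326 (edgeR adjusted p = 1.24e-05). HSP90B1 (ENSG00000166598, chromosome 12, 103930107 to 103948015), which encodes the ER HSP90 protein GRP94, had 1382, 1406 and 1446 CPM with palbociclib and 1084, 1036 and 1122 CPM in controls, a rise of 0.38 ± 0.0394 (edgeR adjusted p = 9.09e-05). CRELD2, an ER stress-inducible folding factor, was at 55.5 ± 1.73 CPM with palbociclib and 47.6 ± 2.87 CPM in controls, a rise of 0.22 ± 0.0562 (edgeR adjusted p = 0.0135). CRELD2 was no longer called under library-size scaling (adjusted p = 0.156) and without control library 2 (adjusted p = 0.0521), over a range of 0.00312 to 0.157 among alternatives.

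SDF2L1 (ENSG00000128228, chromosome 22, 21642302 to 21644299), which works with BiP and J-proteins to keep ER proteins from aggregating, went against these chaperones. It had 15.5, 11.2 and 5.7 CPM with palbociclib and 22.2, 34.2 and 30.1 CPM in controls. The groups did not overlap, and palbociclib library 3 was the lowest. SDF2L1 fell by 1.41 with the widest error of the 37 genes (SE 0.313, edgeR adjusted p = 0.00693). Against control library 3 alone the value was -1.48 with adjusted p = 0.0613, over a range of 0.0033 to 0.0613 among all alternatives. HYOU1, the ER HSP110-type nucleotide exchange factor of BiP, was at 585.6 ± 13.8 CPM with palbociclib and 615.3 ± 14.96 CPM in controls (-0.07 ± 0.0359, edgeR adjusted p = 0.154). MANF, a secreted factor that is retained in the ER with BiP, had 97.4, 88.9 and 83.9 CPM with palbociclib and 77.8, 76.1 and 92.7 CPM in controls (0.13 ± 0.0833, edgeR adjusted p = 0.253). Its groups overlapped through control library 3, and without that library it gave 0.23 with edgeR adjusted p = 0.0264, over a range of 0.0264 to 0.866 among alternatives.

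In the lectin chaperone cycle, which holds glycoproteins by their sugars until they fold, CALR rose and the other two genes did not pass. CALR (ENSG00000179218, chromosome 19, 12938578 to 12944489), which encodes the soluble lectin calreticulin, had 1399, 1316 and 1271 CPM with palbociclib and 903.7, 920.4 and 877 CPM in controls. The lowest palbociclib library lay well above the highest control, a rise of 0.56 ± 0.0427 (edgeR adjusted p = 1.7e-05). CANX, the membrane-bound homolog calnexin, was at 855.1 ± 6.96 CPM with palbociclib and 821.1 ± 8.27 CPM in controls (0.06 ± 0.0307, edgeR adjusted p = 0.17). UGGT1, the folding sensor that puts glucose back on unfolded glycoproteins, was at 158 ± 4.44 CPM with palbociclib and 155.4 ± 5.12 CPM in controls (0.02 ± 0.0413, edgeR adjusted p = 0.693).

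Disulfide enzymes gave 4 rises, 1 fall and 2 genes that did not pass of 7. The shares were 57.1% higher and 14.3% lower, beside 20.1% and 18.5% of all genes tested. PDIA4 (ENSG00000155660, chromosome 7, 149003062 to 149028662), the disulfide isomerase ERp72, had 514.9, 508.9 and 500.3 CPM with palbociclib and 378.1, 364.4 and 351.9 CPM in controls, a rise of 0.48 ± 0.0379 (edgeR adjusted p = 2.13e-05). PDIA3, the isomerase that works with calreticulin and calnexin, was at 623.4 ± 5.77 CPM with palbociclib and 489.2 ± 3.41 CPM in controls, a rise of 0.35 ± 0.0312 (edgeR adjusted p = 4.14e-05). PDIA6, an isomerase that also acts on the sensors, rose by 0.30 ± 0.0375 (edgeR adjusted p = 0.000289) and P4HB, the protein disulfide isomerase itself, by 0.15 ± 0.0387 (adjusted p = 0.0134). The palbociclib libraries lay above the controls in each of these 4 genes. P4HB was no longer called under library-size scaling (adjusted p = 0.462) and without palbociclib library 1 (adjusted p = 0.0546), over a range of 0.000388 to 0.462 among alternatives. PDIA3P1, a processed copy of PDIA3, had 1142 to 1491 counts with palbociclib and 1136 to 1775 in controls, beside 35106 to 45755 and 29243 to 39377 counts for PDIA3, and the division of reads between them is uncertain. PDIA6 shares 1033 of its 4096 exon bases with ATP6V1C2 on the opposite strand, which had 1.47 CPM with palbociclib and 1.1 CPM in controls.

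The paralogs that reoxidise these isomerases behaved differently from each other. ERO1B had 9.97, 10.5 and 8.33 CPM with palbociclib and 16.6, 16.2 and 17.6 CPM in controls, a fall of 0.81 ± 0.111 (edgeR adjusted p = 0.000515). ERO1A was at 31.9 ± 0.569 CPM with palbociclib and 32.1 ± 2.1 CPM in controls (-0.01 ± 0.0643, edgeR adjusted p = 0.907). Per length, ERO1A stood at 3.91 FPKM with palbociclib and 4.25 FPKM in controls, above the 0.578 and 1.09 FPKM of ERO1B, and the ratio of ERO1A to ERO1B was 6.08 to 7.76 in palbociclib libraries and 3.47 to 4.31 in controls. The difference between the paralogs' changes was not tested. TXNDC5, a thioredoxin-domain isomerase, was at 264.8 ± 2.33 CPM with palbociclib and 278.8 ± 3.5 CPM in controls (-0.07 ± 0.0328, edgeR adjusted p = 0.107). It shares 2658 of its 4361 exon bases with the listed read-through gene BLOC1S5-TXNDC5.

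**Figure D2:**
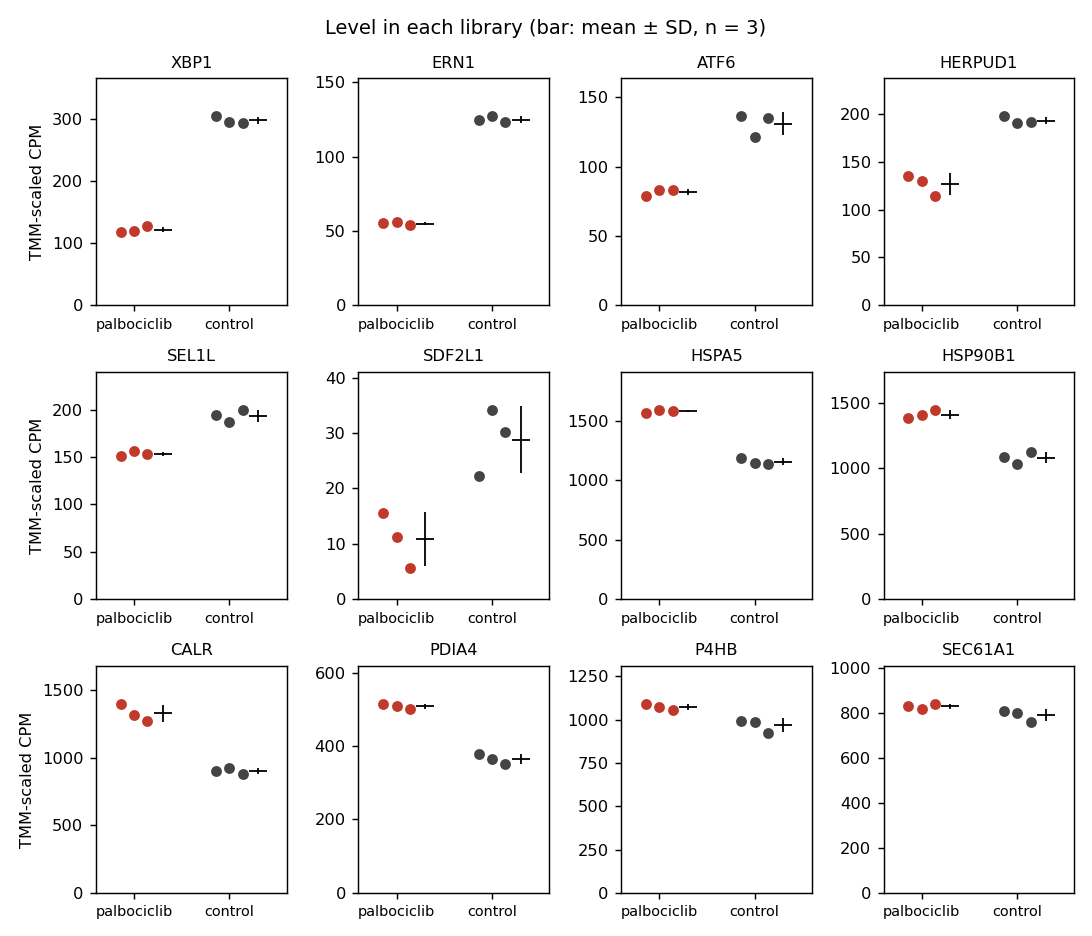
Level in TMM-scaled CPM (from 0) of 12 of the 37 genes in each of the 3 palbociclib (left) and 3 control (right) libraries, with the mean and SD beside the points. Palbociclib libraries lie below the controls for XBP1, ERN1, ATF6, HERPUD1, SEL1L and SDF2L1 and above them for HSPA5, HSP90B1, CALR, PDIA4, P4HB and SEC61A1, the last of which did not pass the test; SDF2L1 spreads from 5.7 to 15.5 CPM within the palbociclib group.

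The 10 ERAD genes recognise misfolded proteins, draw them back across the membrane and ubiquitinate them. Of these, 2 fell (20%), 1 rose (10%) and 7 did not pass, beside 18.5% lower and 20.1% higher among all genes tested. HERPUD1 (ENSG00000051108, chromosome 16, 56932142 to 56944864), a membrane scaffold of the ERAD complex, had 135.6, 130.4 and 114.3 CPM with palbociclib and 197.7, 190.5 and 191.2 CPM in controls, a fall of 0.61 ± 0.0614 (edgeR adjusted p = 8.53e-05). SEL1L (ENSG00000071537, chromosome 14, 81471547 to 81533853), the partner that stabilises the ubiquitin ligase HRD1, had 151, 156.1 and 153.1 CPM with palbociclib and 194.3, 187.4 and 199.9 CPM in controls, a fall of 0.34 ± 0.0388 (edgeR adjusted p = 0.000177). Every palbociclib library lay below every control for both genes. SYVN1, which encodes HRD1, was at 84.7 ± 1.43 CPM with palbociclib and 82.5 ± 4.11 CPM in controls (0.04 ± 0.0472, edgeR adjusted p = 0.589).

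The derlins form part of the channel through which ERAD clients leave. DERL1 had 99.4, 111.5 and 106.5 CPM with palbociclib and 90.9, 86.9 and 95.4 CPM in controls, a rise of 0.22 ± 0.0551 (edgeR adjusted p = 0.0134). DERL1 was no longer called under library-size scaling (adjusted p = 0.16), without palbociclib library 2 (adjusted p = 0.0576) and without control library 2 (adjusted p = 0.051), over a range of 0.00113 to 0.231 among alternatives. DERL2 gave -0.13 ± 0.0518 (edgeR adjusted p = 0.0813). DERL3 was close to the bottom of the range at 58 to 70 counts with palbociclib and 76 to 103 counts in controls (-0.38 ± 0.233, edgeR adjusted p = 0.235), and 2923 of its 3796 exon bases lie opposite SMARCB1, which had 103.5 CPM with palbociclib and 131.2 CPM in controls. Whether some of the reads counted for DERL3 came from SMARCB1 cannot be told, since no source used here gives the strandedness of the counting. The deposited coordinates of DERL3 also differ from those in GENCODE 44, which gave the overlap.

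EDEM1, EDEM2 and EDEM3 trim mannose from glycoproteins to mark them for ERAD, and OS9 reads that mark. Their log2 fold changes were -0.02, -0.09, 0.11 and 0.08, with edgeR adjusted p = 0.773, 0.399, 0.218 and 0.129. OS9 shares 1378 of its 8692 exon bases with AGAP2-AS1, which had 2.38 CPM with palbociclib and 1.82 CPM in controls. EDEM3 had 101.8, 106.2 and 109.4 CPM with palbociclib and 91.1, 94.2 and 108.2 CPM in controls, where control library 3 reached into the palbociclib range. Without that library EDEM3 gave 0.19 with edgeR adjusted p = 0.0119, over a range of 0.0119 to 0.987 among alternatives.

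At the translocon, 1 of 4 genes fell (25%, beside 18.5% of all genes tested) and 3 did not pass. SEC63, the J-protein that brings BiP to the channel, had 153.8, 158.9 and 158.8 CPM with palbociclib and 189.6, 168.3 and 200 CPM in controls, a fall of 0.24 ± 0.0605 (edgeR adjusted p = 0.0121). SEC61A1, the channel itself, was at 828.1 ± 11.0 CPM with palbociclib and 788.3 ± 26.3 CPM in controls (0.07 ± 0.0362, edgeR adjusted p = 0.159). SEC61B, a small channel subunit, gave 0.18 ± 0.0738 (edgeR adjusted p = 0.0845), and was called higher without palbociclib library 3 (adjusted p = 0.0483), without control library 3 (adjusted p = 0.0188) and by DESeq2 (adjusted p = 0.0323), over a range of 0.0188 to 0.8 among alternatives. SSR1, a subunit of the translocon-associated complex, gave 0.06 ± 0.0401 (edgeR adjusted p = 0.283). WFS1, an ER membrane protein that restrains ATF6, was at 45.6 ± 1.65 CPM with palbociclib and 42.5 ± 1.71 CPM in controls (0.10 ± 0.0534, edgeR adjusted p = 0.173).

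Per length, the genes spanned 0.281 to 381 FPKM as the mean of both groups, from DERL3 to CALR. Of the 10 with most FPKM, 6 rose, 1 fell and 3 did not pass, with a median log2 fold change of 0.24, and the exception was XBP1, at 37.3 FPKM with palbociclib and 98.5 FPKM in controls. Of the 10 with least FPKM, 3 fell and 7 did not pass, with a median of -0.13. Among all genes tested, at any level, 20.1% rose and 18.5% fell. Over the 37 genes, Spearman's correlation of mean FPKM with log2 fold change was 0.54, a description of genes that share the same 6 libraries. The same relation over all genes tested is not given here, so it cannot be called particular to these genes. The ratio of XBP1 to HSPA5 in FPKM was 0.163 to 0.173 in palbociclib libraries and 0.553 to 0.558 in controls.

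**Figure D3:**
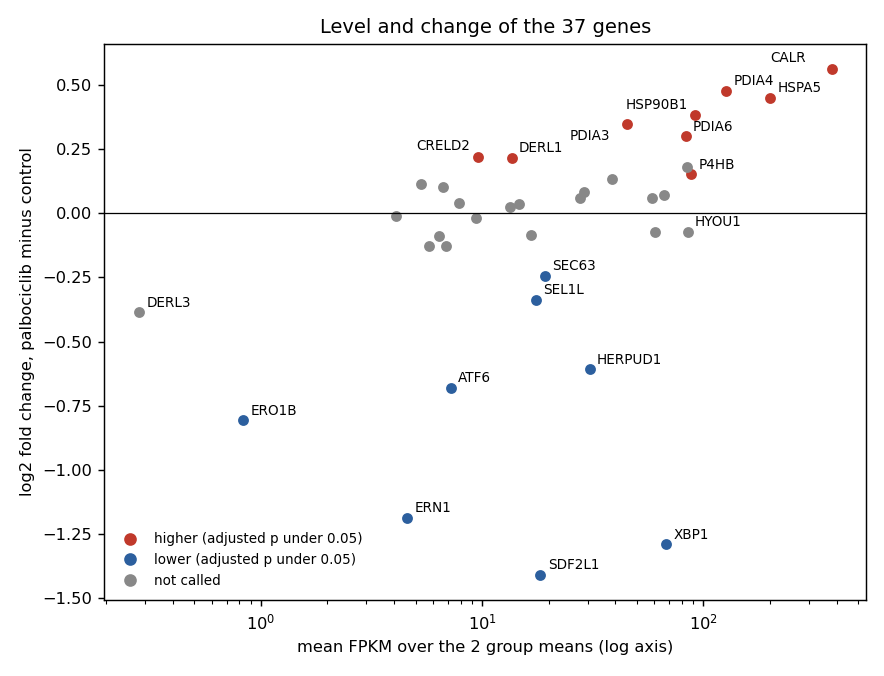
Mean FPKM over both groups (log axis) against log2 fold change of palbociclib over control for the 37 genes, coloured by call. CALR, HSPA5 and PDIA4 are the 3 genes with most FPKM, at log2 fold changes of 0.56, 0.45 and 0.48, while XBP1, with 67.9 FPKM, lies at -1.29.

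The wider ER system was read from 7 further lists with 99 genes, of which 98 were tested: 38 rose and 19 fell (38.8% and 19.4%, beside the 20.1% and 18.5% of all genes), with a median of 0.08, or 27 and 30 with library size alone. Other oxidoreductases and prolyl isomerases gave 11 rises and 1 fall of 21 (median 0.23). Those with the lowest adjusted p included QSOX1, a sulfhydryl oxidase (0.90), SELENOM (0.93) and the collagen chaperone FKBP10 (0.37). ER J-proteins and the exchange factor SIL1, the other partners of BiP, gave 2 rises and 3 falls of 6 (median -0.26). The falls were DNAJC10 (-0.62), which reduces disulfides of ERAD clients, DNAJB11 (-0.41), and DNAJC1 (-0.31), while DNAJC3, an inhibitor of PERK, rose (0.22).

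Other ERAD genes gave 7 rises and 2 falls of 22 (31.8% and 9.09%, beside 20.1% and 18.5% of all genes tested, median 0.09). VCP, the ATPase that extracts ubiquitinated proteins from the membrane, was at 737.1 CPM with palbociclib and 483.3 CPM in controls (0.61 ± 0.0312, edgeR adjusted p = 1.71e-06) and rose, as did the mannosidase MAN1B1 (0.44). HERPUD2, the paralog of HERPUD1, fell by 0.60 and SELENOS, which recruits VCP, by 0.44. The oligosaccharyltransferase, which attaches N-glycans, gave 5 rises and 2 falls of 11 (median 0.08), with MAGT1 at 0.47 and the catalytic subunit STT3A at -0.29. Signal recognition, translocation and signal peptide removal gave 7 rises and 5 falls of 21 (median 0.03), with SRP14 at 0.55 and SERP1, a translocon-associated protein with ERSE in its window, at -0.42. Other glucosidases and lectins gave 2 rises and 2 falls of 7 (median -0.02), with MLEC, a lectin for newly made glycoproteins, at 0.62 and MCFD2, a cargo receptor subunit, at -0.30.

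Among other regulators of the response 4 rose and 4 fell of 10 tested (median -0.08), with NFYC (-0.62), CREB3L2 (-0.45) and NFYA (0.47) among them. NFYA, NFYB and NFYC are the subunits of NF-Y, and NFYB, named after its value was seen, also fell (-0.28). Of 9 genes commonly assigned to XBP1, 2 rose, 2 fell and 5 did not pass (22.2% and 22.2%, median -0.02). Of 11 commonly assigned to ATF6, 5 rose, 3 fell and 3 did not pass (45.5% and 27.3%, median 0.13). Among all genes tested 20.1% rose and 18.5% fell, and the difference between the lists was not tested. These assignments are background knowledge, the factors share targets, and the lists hold 5 and 11 of the 37 genes. EDEM1 and DNAJB9 are both widely used as readouts of XBP1, and the second was named after its value was seen. They gave -0.02 and -0.21, with edgeR adjusted p = 0.773 and 0.0654. Of the same 9 genes, SERP1 (-0.42) and DNAJB11 (-0.41) fell, and PDIA6 (0.30) and DNAJC3 (0.22) rose. DESeq2 called all 6 genes of the ER J-protein list, DNAJB9 included, with 2 rises and 4 falls.

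Of 6 genes listed as the PERK arm, 5 fell and 1 did not pass (median -1.74). That is 83.3% lower, where 18.5% of all genes tested fell and 20.1% rose. EIF2AK3, which encodes PERK, was at 46.7 CPM with palbociclib and 46.8 CPM in controls (log2 fold change -0.0032 ± 0.051, edgeR adjusted p = 0.969). ATF4, whose translation PERK favours, was at 369.6 CPM with palbociclib and 904.4 CPM in controls (-1.29 ± 0.0352, edgeR adjusted p = 7.47e-08). These mRNA levels do not report on the activity of PERK, and whether the falls came through PERK was not tested. DDIT3, which encodes the death-linked factor CHOP, stood at 12.3 CPM with palbociclib and 73 CPM in controls, and the changes of ATF3, PPP1R15A and TRIB3 were -2.19, -0.69 and -3.39. Among heat shock genes outside the ER, HSPD1 and HSPE1 encode mitochondrial chaperonins and the rest cytosolic proteins. They gave 11 rises among 12 (91.7%, beside 20.1% of all genes tested), with 1 gene that did not pass (median 1.04). Their summed level was 9770 to 9959 CPM with palbociclib and 5420 to 5552 CPM in controls. The summed level of the lumenal ER chaperones was also higher with palbociclib, though among them SDF2L1 fell and HYOU1 and MANF did not pass. Any part of the heat shock genes in that difference was not tested. Of 8 immediate early genes 1 rose, 2 fell and 5 did not pass.

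**Figure D4:**
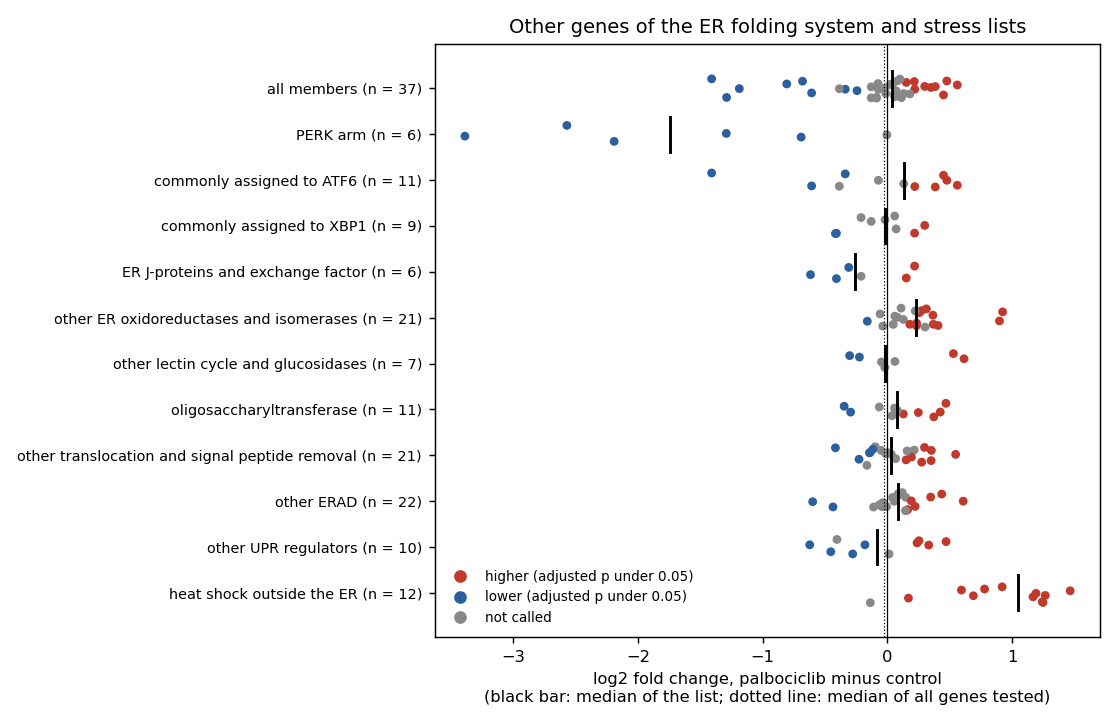
Log2 fold change of palbociclib over control for the 37 genes and for the genes of 11 other lists, 1 point a gene coloured by call, with a black bar at each list's median. The PERK arm has its median at -1.74 and heat shock genes outside the ER at 1.04, while the other ER lists have medians between -0.26 and 0.23.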

How the data were processed

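Estimated counts and FPKM values per gene are as deposited by the authors. Per the labels' design text, adaptors and poor bases were removed with fastp, reads were mapped with HISAT2, and StringTie, with gffcompare for merging, gave the expression levels. The submitters' processing notes list versions (HISAT2 2.0.4, StringTie 1.3.4d), the build hg38, and cutadapt 1.9, without saying how it was used beside fastp. All estimated counts deposited by the authors were whole numbers, so rounding changed no value. About 4 counts were taken to stand for a fragment, which is an assumption. The value 4 occurred 7905 times, beside 7042 for 1, 3768 for 3 and 2682 for 5, so many values are not multiples of 4. The deposited FPKM values are scaled to mapped reads and exon length, per the labels' design text, and were not rescaled. No column of per-sample values was left without a sample (0 columns).

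Counts were kept by filterByExpr (minimum count 10, minimum total 15), scaled by TMM and tested with edgeR 4.0.16 in R 4.3.3 (quasi-likelihood F-test, palbociclib minus control, all 6 libraries, Benjamini-Hochberg adjustment over 21218 genes, threshold 0.05); an SE is the size of the log2 fold change over the root of F. The fit was tested on simulated data. On counts divided by 4, no 2 libraries of a group agreed within sampling noise (chi-square over degrees of freedom, 3.45 to 6.24). Members and lists were chosen with earlier results of these data known. All 37 members were named, at most 4 genes of each wider list by lowest adjusted p, and the whole PERK arm; NFYB and DNAJB9 were added after their values were seen. Gene positions are the deposited ones, and exon overlaps come from GENCODE 44 on hg38. The coordinates were the same in both for 27 of the 37 members, and differed for DERL3 and OS9 among others. Exons of 18 members overlapped those of another listed gene with at least 60 counts, and the 5 longest overlaps are given. Alternatives were DESeq2 1.42.0, limma 3.58.1 on log2(FPKM + 1) and log2(FPKM + 0.1), other scalings and filters, counts divided by 4, a replicate block and libraries left out. Promoter sequences are from RefSeq.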

Additional observations from a re-analysis of the deposited data

How the results depend on the processing

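Of the 17 called members, 13 kept their direction and call under all 15 alternatives, all 17 kept their direction, and 12 of the 20 others stayed uncalled. The members that fell numbered 13, against 8 with TMM, under library size alone and under limma on log2(FPKM + 1) and on log2(FPKM + 0.1), and the same 3 settings gave 30 falls in the wider ER lists (19), 2 in lumenal chaperones (1), 2 in disulfide enzymes (1) and 4 falls with 0 rises in ERAD (2 and 1). HYOU1, TXNDC5, EDEM1 and DERL2 were among the falls gained, with adjusted p = 0.00355, 0.00209, 0.0358 and 0.00587 under library size alone. The limma fits also differ in test and input. Both gave 24 rises in the wider lists (38). Counts divided by 4 gave 11 falls among members (8) with 9 rises (9), and 21 falls in the wider lists (19). By group these were 4 falls in sensors and activators (3), 3 in ERAD (2) and 2 in disulfide enzymes (1). DESeq2 gave 1 rise at the translocon. Against control library 3 alone, all genes gave 2182 falls (3921), the wider lists 24 rises, lumenal chaperones 0 falls and ERAD 0 rises. Leaving out 1 library gave 0 to 2 rises in ERAD and 0 to 1 at the translocon. Uncalled members changed sign as follows, for library size alone, limma with 1 and limma with 0.1: MBTPS1 -0.0704, -0.0597 and -0.0665, CANX -0.053, -0.0497 and -0.0505, UGGT1 -0.088, -0.079 and -0.085, SYVN1 -0.075, -0.067 and -0.071, OS9 -0.028, -0.024 and -0.025, SEC61A1 -0.041, -0.037 and -0.038, SSR1 -0.052, -0.047 and -0.049, and WFS1 -0.011, -0.0068 and -0.0077. Against control library 3 alone, ATF6B gave 0.074, MANF -0.048, UGGT1 -0.035, ERO1A 0.0799 and EDEM3 -0.039. With 1 library left out, ERO1A ranged from -0.058 to 0.034, EDEM1 from -0.04 to 1.8e-05 and SYVN1 from -0.00305 to 0.059. The cause of these changes was not tested. Same-numbered libraries did not deviate together (correlations -0.0079, -0.034 and -0.031), and a replicate block gave 9 rises and 8 falls among members and 3855 and 3438 among all genes. DERL3, with 58 to 70 counts in palbociclib libraries and 76 to 103 in controls, is the member whose depth most limits its value.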
